A study of Drosophila melanogaster with 12 samples.

Results

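Regular nucleosome arrays that were found in the glia map and not in the progenitor map are described here. An array, called a run below, is a stretch in which at least 5 consecutive distances between neighbouring nucleosome starts were each 160 to 200 bp. Both lists give every nucleosome the same width, so a distance between starts equals a distance between dyads, the nucleosome midpoints. The glia map held 1902 runs, and 1680 of them shared no base with a run found in the same way in the progenitor map. These 1680 are called glia-only runs. The other 222 are called shared glia runs. The progenitor runs that shared no base with a glia run covered 4.80 Mb, only 3.99% of the sequence spanned by the progenitor map. Most short stretches would therefore share no base with a progenitor run wherever they lay. The number of glia-only runs is thus no measure of glia specificity, and the share given by placement alone was not worked out. Both maps together held 6129 runs. The glia-only runs were chosen by the spacing of both maps, so their own spacing and the lack of a progenitor run inside them are a description and not a finding. "Glia-only" is a name given by this rule and does not mean that the progenitor cells lack nucleosomes there.

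The study isolated nuclei by INTACT, in which a tagged protein of the nuclear envelope is expressed in one cell type and the nuclei are pulled down by the tag. The progenitors are named GNP (Gcm-expressed neural progenitor, early glial cells in the labels). They came from embryos aged 5 to 7 h after egg laying that carried gcm-Gal4 and UAS-mCDGFP over cyo, together with UAS-3xFLAG-blrp-mCherry-RanGap. The glia (late glial cells in the labels) came from embryos aged 12 to 14 h that carried repo-Gal4 with UAS-3xFLAG-blrp-mCherry-RanGap over Tm3B. These genotypes are spelled as in the labels. The study's methods name the glia balancer Tm3 and describe the final GNP line without cyo. Both groups thus carry Gal4 and the same tagged RanGap, and the GNP line also carries a UAS-driven membrane GFP. The *gcm* driver is also active in precursors of blood cells, and the cell types differ in embryo age and driver line, which cannot be told apart from a difference in cell type. The files give positions only, so the labels could not be checked against marker genes.

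Nucleosomes are the repeating unit of chromatin, and in many places they follow one another at a nearly constant repeat length, like beads on a string. Remodelers of the ISWI and CHD families space nucleosomes evenly, and linker histone H1 is known to lengthen the repeat. Evenly spaced nucleosomes take fixed positions in a population of cells when the array starts from a fixed point, such as the first nucleosome of an active gene or a bound insulator protein. *gcm* is the transcription factor that starts glial fate in *Drosophila*, and *repo* is a homeobox gene that marks nearly all lateral glia.

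Predicted nucleosomes numbered 522119 in the GNP map and 510664 in the glia map, on the dm3 arms 2L, 2R, 3L, 3R, 4 and X. Spacing was wider in glia, where neighbouring dyads had a median distance of 210 bp, and 201 bp in GNP. Distances of 160 to 200 bp, the window of the rule, made up 35.0% of the glia distances and 40.6% of the GNP distances. GNP had 4227 runs, of which 4003 shared no base with a glia run, so the reverse set of GNP-only runs was the larger one. The lists carry no read numbers, and depth moves the number and evenness of called positions. Each cell type has a single library, so the differences below have no replicate check and were not tested. The 95% intervals cover counting error only, and neighbouring nucleosomes are not independent.

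The glia-only runs were mostly short. Together they held 11051 glia nucleosomes and 9371 distances and covered 1.93 Mb, which is 1.61% of the sequence spanned by the glia map. Exactly 5 distances made up 1058 runs, 63.0% (95% Wilson interval 60.6% to 65.3%). A further 402 runs had 6 distances, 138 had 7, 53 had 8 and 18 had 9. Runs of 10 distances numbered 7, runs of 11 numbered 2, and there was 1 run each of 12 and 13. The median run measured 1069 bp from the first to the last base (quartiles 1038 and 1229 bp), the shortest 983 bp and the longest 2428 bp. Of the shared glia runs 43.7% had 6 or more distances (37.3% to 50.3%), of the GNP-only runs 45.6% (44.0% to 47.1%) and of the glia-only runs 37.0% (34.7% to 39.4%). The longest GNP-only run had 15 distances, as had the longest shared glia run.

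**Figure D1:**
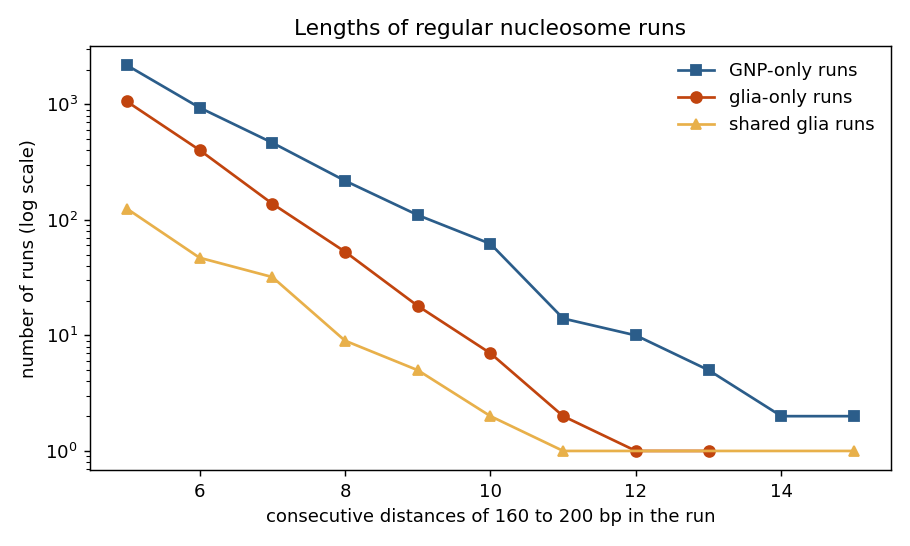
Number of runs (log axis) against the number of consecutive distances of 160 to 200 bp, for GNP-only, glia-only and shared glia runs. Glia-only runs fall from 1058 at 5 distances to 1 at 13, and GNP-only runs from 2179 at 5 to 2 at 15.

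The share of stretches that went on was then followed from step to step. Of the glia stretches that reached 1 distance of 160 to 200 bp, 35.9% went on to the next (35.7% to 36.2%). Of those that reached 3 distances 35.8% went on, and of the 1902 that reached 5 distances 37.8% went on. The share over all glia distances was 35.0%. In the GNP map the same shares were 41.0% after 1 distance (40.7% to 41.2%), 43.8% after 3 (43.1% to 44.4%) and 45.8% after 5 (44.3% to 47.3%), beside 40.6% over all GNP distances. GNP stretches thus went on more often with length up to 6 distances, where the share was 48.9% (46.7% to 51.1%). Beyond that it did not rise, with 47.6% after 7, 47.9% after 8 and 45.4% after 9 distances. After 10 distances it was 35.7% (26.9% to 45.6%) of 98 stretches. In glia the share after 6 was 37.6% (34.1% to 41.1%).

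Distances in the runs were confined to the window by the rule. The median glia distance in them was 180 bp (quartiles 170 and 190 bp). The mean distance of a run had a median of 179.8 bp and ranged from 166.3 to 195.2 bp, and in 67.6% of runs it lay within 5 bp of 180 bp. The SD of the distances within a run had a median of 11.4 bp and ranged from 1.82 to 19.1 bp. Shared glia runs had a median of 179 bp and a median SD of 10.8 bp, and GNP-only runs 179 bp and 11.1 bp. A value near the middle of the window follows from the rule in every set, so these medians are a description only and say nothing about the repeat length of either map. The median of the run means was 179.5 bp for runs of 5 distances, 180.3 bp for 6, 180.1 bp for 7 and 179.6 bp for runs of 8 or more.

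Glia-only runs were spread over all 6 arms. There were 317 on 2L, 296 on 2R, 326 on 3L, 417 on 3R, 17 on 4 and 307 on X. Their density was lowest on arm 4, the small dot chromosome that is largely heterochromatic, with 12.8 runs per Mb (95% Poisson interval 7.48 to 20.6). It was highest on 3R, with 14.9 per Mb (13.5 to 16.5), and the other arms lay between 13.3 and 14.0 per Mb. The intervals of all arms overlapped. Per 1000 glia distances the arms held 3.16 (3L) to 3.44 (3R) runs. Of the glia runs of an arm, 87.1% (3R) to 94.4% (4) were glia-only, the latter being 17 of 18 runs.

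**Figure D2:**
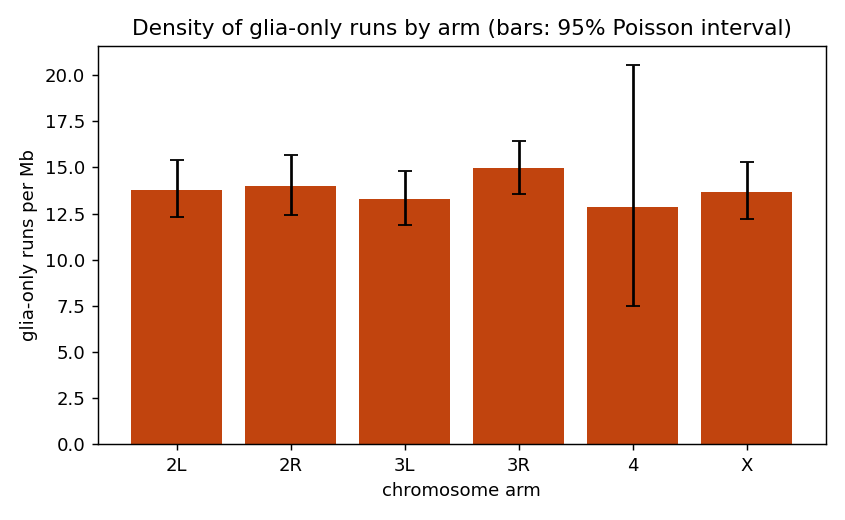
Glia-only runs per Mb on each chromosome arm, with 95% Poisson intervals as error bars. The values lie between 12.8 per Mb on arm 4 and 14.9 per Mb on 3R, and all intervals overlap.

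Along the arms the runs showed no common preference for the end with low or with high coordinates. Each arm was divided into 10 equal parts from its low to its high coordinates, and the arms were added up. A part then held 149 to 187 runs, or 2.91 to 3.60 per 1000 glia nucleosomes. The high end is next to the telomere on 2R and next to the centromere on 3L. The added parts thus mix both kinds of end, and a preference for either kind was not tested. Outside arm 4, the last part of 2R had most runs per nucleosome, with 43 runs (95% Poisson interval 31.1 to 57.9) and 4.67 per 1000 nucleosomes. This is the telomere-proximal end of 2R. The part before the last on X followed with 42 runs (30.3 to 56.8) and 4.48 per 1000. Outside arm 4, fewest runs per nucleosome lay in the second part of X, with 20 runs (12.2 to 30.9) and 2.13 per 1000. The last part of 3L, next to the centromere, had 18 runs (10.7 to 28.4) and 2.15 per 1000. These parts were picked after their values were seen.

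Few glia-only runs lay close together. Gaps from random placement of as many runs were not worked out, so the spread is a description only. The median gap between neighbouring glia-only runs was 48.6 kb and the largest 505 kb. Only 25 of 1674 neighbouring pairs were within 1 kb of each other, and the closest pair was 2 bp apart. Of 1207 windows of 100 kb, 912 held at least 1 glia-only run, 425 held exactly 1, 293 held 2 and 15 held 5 or more. The fullest windows were 20900001 to 21000000 on 3L and 600001 to 700000 on 3R, each with 7 glia-only runs, and 5400001 to 5500000 on 2R with 6, 1 of 2 windows with that number, taken by arm order. In none of these 3 windows did the glia runs share a base with a GNP run, although the windows held 4, 3 and 2 GNP runs. They held 454 glia and 466 GNP nucleosomes in the 3L window, 455 and 469 in the 3R window and 455 and 464 in the 2R window. The median distance from a glia-only run to the closest GNP run was 9.22 kb, and 132 runs, 7.86%, had one within 1 kb.

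Inside the glia-only runs the GNP map was not empty. It held 7848 nucleosomes between the first and last glia dyads, 4.66 per kb, beside 4.34 per kb over the whole GNP map. This is 71.0 GNP nucleosomes for 100 glia nucleosomes, a ratio lowered by counting a glia dyad at both ends of every run. Set against the number of glia distances, which has no such end effect, there were 83.7 GNP nucleosomes for 100 glia distances. In 505 runs, 30.1% (27.9% to 32.3%), GNP had at least as many nucleosomes as there were glia distances and still no run. In 833 runs, 49.6%, GNP had 1 fewer, and in 342 runs, 20.4%, it had 2 or more fewer. The runs were chosen for closely set glia nucleosomes, so fewer GNP nucleosomes than glia distances are built into the rule. In stretches of the same length directly before and after the runs, GNP had 4.54 and 4.57 nucleosomes per kb. GNP density was thus not lower inside the runs. The mirror comparison gave 21.1% of GNP-only runs (19.8% to 22.4%) with at least as many glia nucleosomes as GNP distances.

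GNP spacing inside the runs was measured over the 6168 GNP distances with both dyads between the first and last glia dyad. Their median was 192 bp (95% interval 190 to 193 bp, quartiles 171 and 239 bp). Of these distances 46.3% (45.1% to 47.6%) lay between 160 and 200 bp, beside the 40.6% of the whole GNP map given above. A further 10.5% were under 160 bp (9.32% over the whole GNP map), 18.5% were over 200 and up to 240 bp, 15.7% were wider with a gap under 150 bp, and 8.97% left a gap of 150 bp or more between neighbouring nucleosomes (12.3% over the whole map). Requiring both dyads inside leaves out wide distances that cross an end of the run. When every GNP distance touching the run was counted, which favours wide ones, the median was 201 bp and 40.8% were 160 to 200 bp (39.8% to 41.7%). Both counts carry an end effect, in opposite directions, which the whole-map share does not, so neither can be read directly against it.

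A stretch of the same length was taken directly before and after each run, where wide distances crossing an end are left out too. Next to the run, each such stretch has a glia distance that the rule puts outside 160 to 200 bp. Glia and GNP positions coincide in part, so these stretches are not a neutral comparison. There 41.9% (40.7% to 43.2%) of GNP distances before and 41.3% after the runs were 160 to 200 bp, beside 46.3% inside, and the medians were 198 bp on both sides. The interval of the share inside did not overlap those of the stretches beside it, but neighbouring distances are not independent. The GNP share was thus higher inside, although the rule bars 5 such distances in a row inside and not beside the runs. Because the rule also shapes the stretches beside the runs, this difference is a description only. The reverse set behaved in the same way. Inside GNP-only runs 40.9% (40.2% to 41.7%) of glia distances were 160 to 200 bp, beside 35.9% before and 36.6% after them.

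**Figure D3:**
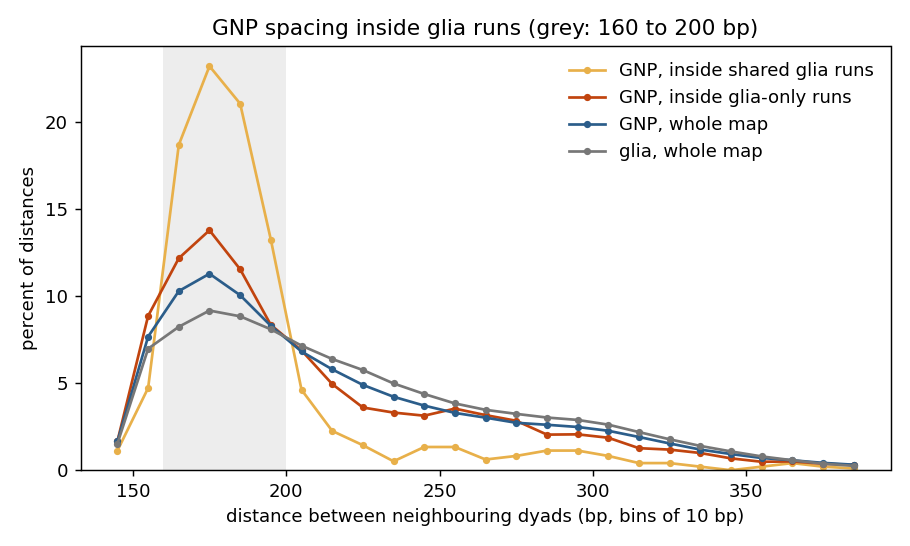
Percent of neighbour distances in bins of 10 bp, for GNP inside shared glia runs, GNP inside glia-only runs and the whole GNP and glia maps, with 160 to 200 bp in grey. GNP inside glia-only runs (46.3% in the grey band) lies above the whole GNP map (40.6%) and far below GNP inside shared runs (77.3%). Shared runs share bases with a GNP run by the rule. Both inside counts leave out wide distances that cross a run end, so they cannot be read directly against the whole map.

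The rule needs only 1 break to part a GNP array, and most runs had at least 2. Only 40.6% of all GNP distances were 160 to 200 bp, so several breaks are common in any stretch of this length. In 51 glia-only runs no GNP distance inside was outside 160 to 200 bp, the GNP stretch being too short to count. In 508 runs 1 GNP distance inside broke the array, in 679 runs 2, in 345 runs 3, and in 97 runs 4 or more did. At least 2 breaks were thus found in 1121 runs, 66.7%, beside 75.2% of GNP-only runs with respect to glia distances. The longest GNP stretch of such distances inside a run had 1 distance in 720 runs, 2 in 459, 3 in 187 and 4, the most the rule allows, in 46. In 268 runs, 15.95% (14.3% to 17.8%), GNP had no distance of 160 to 200 bp inside at all. In the reverse comparison this held for 18.8% of GNP-only runs. The share for other stretches of the same length was not worked out. A GNP gap of 150 bp or more touched 915 runs, 54.5% (52.1% to 56.8%), beside 57.3% (54.9% to 59.7%) of the stretches of the same length before the runs and 57.1% (54.7% to 59.4%) of those after. Among GNP-only runs 58.5% were touched by a glia gap. The share of shared glia runs was 30.2% (24.5% to 36.5%). By the rule these share bases with a GNP run (smallest overlap 31 bp, median 860.5 bp), but need not hold a whole one. Long stretches without GNP calls, over 500 bp between neighbours, touched 24 runs, 1.43%.

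The positions of single nucleosomes were then compared. The distance from a glia dyad of a glia-only run to the closest GNP dyad had a median of 34 bp (95% interval 32 to 36 bp, quartiles 7 and 79 bp). A GNP dyad within 20 bp was found for 4727 of 11051 glia nucleosomes, 42.8% (41.9% to 43.7%), beside 41.2% of all glia nucleosomes. At the same position were 2.02% (1.77% to 2.30%), beside 1.77% of all glia nucleosomes. The closest GNP nucleosome overlapped the glia one by 20 bp or less, which the study counts as a gain, for 4.97% (4.58% to 5.39%), beside 3.97% of all glia nucleosomes. The GNP dyad lay 60 to 100 bp away, about midway between glia dyads, for 26.7%, beside 27.4% of all glia nucleosomes. It lay at a lower coordinate for 48.5% and at a higher one for 49.4%, so there was no shift to one side. Shared runs had a median of 12 bp, with 63.1% (60.7% to 65.5%) within 20 bp. Over all glia nucleosomes the median was 35 bp. The share within 20 bp and the share counted as a gain were thus both somewhat above their whole-map values, which lay just below the intervals, and the medians differed by 1 bp. In the stretches of the same length before and after the runs 41.0% (39.8% to 42.2%) and 41.5% (40.3% to 42.7%) of glia nucleosomes had a GNP dyad within 20 bp.

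**Figure D4:**
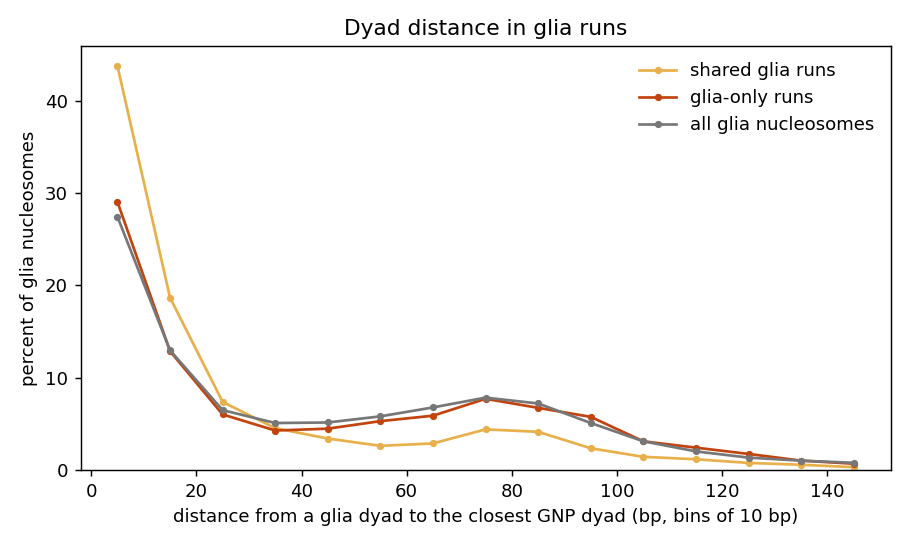
Percent of glia nucleosomes in bins of 10 bp of the distance to the closest GNP dyad, for shared glia runs, glia-only runs and all glia nucleosomes. The curve of glia-only runs (median 34 bp) runs close to that of all glia nucleosomes, while shared runs (median 12 bp) have more nucleosomes at short distances.

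The positions of neighbouring nucleosomes were compared next. After a glia nucleosome with a GNP dyad within 20 bp, the next one in the run also had one in 2388 of 4047 cases, 59.01% (57.5% to 60.5%). After a nucleosome without one it was 1664 of 5324, 31.3%. Over all neighbouring glia nucleosomes the same shares were 49.1% and 35.7%, so close positions also followed one another outside the runs. In GNP-only runs they were 54.7% (53.7% to 55.7%) and 30.8%, and in shared glia runs 80.9% and 35.2%. The longest stretch of close nucleosomes in a run had a median of 2. It had 1 nucleosome in 446 runs, 2 in 486, 3 in 313 and 4 or more in 308 runs, 18.3% (16.6% to 20.3%). The first and last nucleosomes of the runs were close to a GNP dyad in 40.3% (38.7% to 42.0%) and the inner ones in 43.8% (42.7% to 45.0%). In 1517 runs, 90.3%, some nucleosomes were close to a GNP dyad and others were not, as in 91.6% of GNP-only runs (90.7% to 92.4%) with respect to glia dyads. This share was not worked out for other glia stretches of the same length.

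Runs at both ends of this scale were compared. In 36 runs, 2.14% (1.55% to 2.95%), every glia nucleosome had a GNP dyad within 20 bp. With respect to glia dyads this held for 1.52% (1.19% to 1.95%) of GNP-only runs. The median dyad distance in the 36 runs was 7 bp, and the longest had 6 distances. Of the GNP distances in them 69.3% were 160 to 200 bp and 93.5% were 150 to 210 bp, and 30 of the 36 shared bases with a GNP run once the GNP window was widened to 150 to 210 bp. In 127 runs, 7.56% (6.39% to 8.92%), no glia nucleosome had a GNP dyad within 20 bp. Of GNP-only runs, 6.84% (6.10% to 7.67%) had no glia dyad that close. Neither share was worked out for other glia stretches of the same length, so neither can be called high or low. The 127 runs had a median dyad distance of 76 bp, and 58.0% of their nucleosomes lay 60 to 100 bp from a GNP dyad. The small and the large dyad distances of these runs follow from how they were picked. So, largely, do the GNP spacing in the 36 runs and their overlap with GNP runs of the wider window. GNP spacing in the 127 displaced runs had a median of 193 bp with 48.3% of distances at 160 to 200 bp. Of the 127, 54 (42.5%) held at least as many GNP nucleosomes as glia distances. Over all glia-only runs, 384 (22.9%) shared bases with a GNP run of the wider window.

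Closeness to GNP positions followed no order with run length. The share of nucleosomes with a GNP dyad within 20 bp was 42.4% (41.2% to 43.7%) in runs of 5 distances, 44.2% (42.4% to 46.1%) in runs of 6, 40.6% (37.7% to 43.5%) in runs of 7 and 43.3% (39.9% to 46.8%) in the 82 runs of 8 or more. The median GNP distance was 191, 191, 193 and 194 bp in the same order. Over the arms, 42.1% (2L) to 43.6% (2R) of nucleosomes were close, and the median GNP distance was 190 to 193 bp.

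The distances that ended a run were set beside all glia distances outside 160 to 200 bp. Of the 3360 flanking distances 39.0% were over 200 and up to 240 bp and 12.1% (11.1% to 13.3%) were under 160 bp, beside 13.1% of all glia distances outside the window. A gap of 150 bp or more, the length the study uses for nucleosome depletion regions, followed at 20.2% of run ends (18.9% to 21.6%), beside 20.4%. A gap stood at both ends of 72 runs, at 1 end of 536 and at neither end of 1072. Run ends were thus near the background for such gaps. At 369 ends the flanking distance missed the window by 5 bp or less.

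Members just inside and just outside the limits of the rule are set side by side. Glia runs of exactly 4 distances that shared no base with a GNP run numbered 3010, with a median dyad distance of 35 bp, 42.3% of nucleosomes close and a median GNP distance of 190 bp. The 1058 glia-only runs of exactly 5 had 35 bp, 42.4% and 191 bp. The 22 glia-only runs with a GNP run within 200 bp had a median dyad distance of 32 bp and 46.8% of nucleosomes close. The 27 glia runs left out because they shared 200 bp or less with a GNP run had 35 bp and 40.7%.

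Single runs show these patterns. The longest glia-only run lay on 2L at 10709099 to 10711526, with 14 nucleosomes in 2428 bp. Its 13 glia distances ranged from 161 to 200 bp, with a mean of 175.5 bp with an SD of 11.8 bp. The 11 GNP nucleosomes inside had distances of 251, 254, 169, 151, 160, 176, 159, 168, 336 and 187 bp, of which 5 were 160 to 200 bp. Of the 14 glia nucleosomes 8 had a GNP dyad within 20 bp. Nucleosomes 6 to 10 and 12 to 13 of the array were in register. The one between them lay 159 bp from the closest GNP dyad, inside the GNP distance of 336 bp.

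The next in length lay on 3L at 21810577 to 21812850, with 12 glia distances of 163 to 194 bp. GNP had 9 nucleosomes there, at distances of 386, 256, 172, 163, 267, 293, 156 and 270 bp. Of the 13 glia nucleosomes 5 were close to a GNP dyad and the median dyad distance was 71 bp. The 5 close nucleosomes lay 0 to 9 bp from a GNP dyad, so the array was in register with GNP in part.

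A run of 11 distances on 2L, at 3553332 to 3555404, had no GNP distance of 160 to 200 bp. The GNP distances were 251, 212, 154, 242, 225, 277 and 301 bp, and 2 of 12 glia nucleosomes were close. Another run of 11 distances, on 3R at 7836191 to 7838319, was the opposite case. Its GNP distances were 305, 166, 185, 187, 322, 190, 197 and 191 bp, and 8 of 12 glia nucleosomes were close, with a median dyad distance of 12 bp. Here 6 of 8 GNP distances were in the window. The 2 wide ones each spanned a glia dyad far from any GNP dyad, at 122 and 160 bp from the closest one. The first of these is below the 126 bp counted as a gain. The run of 10 distances on 3R at 15169946 to 15171907 held a GNP stretch of 4 distances (175, 181, 186 and 196 bp), the longest the rule allows, and 7 of its 11 nucleosomes were close. It was the one of the 7 runs of 10 distances with the smallest SD, 9.77 bp.

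The longest runs of the other arms were shorter. On 2R a run of 10 distances at 17004795 to 17006692, 1898 bp long, had 1 of 11 nucleosomes close and a median dyad distance of 67 bp. It was taken by the tie rule, the smaller SD of the distances, over another 2R run of 10 distances at 5466140 to 5468081, which was longer in bases and had 4 of 11 close and a median of 35 bp. On X a run of 9 distances, again the smaller SD of 2 such runs, at 17373244 to 17374966 had 4 of 10 close, and its GNP distances were 174, 291, 237, 168, 318 and 255 bp. On arm 4 a run of 9 distances at 738903 to 740693 had a mean glia distance of 182.7 bp and 2 of 10 nucleosomes close. Its GNP distances were 193, 202, 280, 253, 148 and 230 bp. This run was flanked by glia distances of 317 and 321 bp, a gap of 150 bp or more on both sides.

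**Figure D5:**
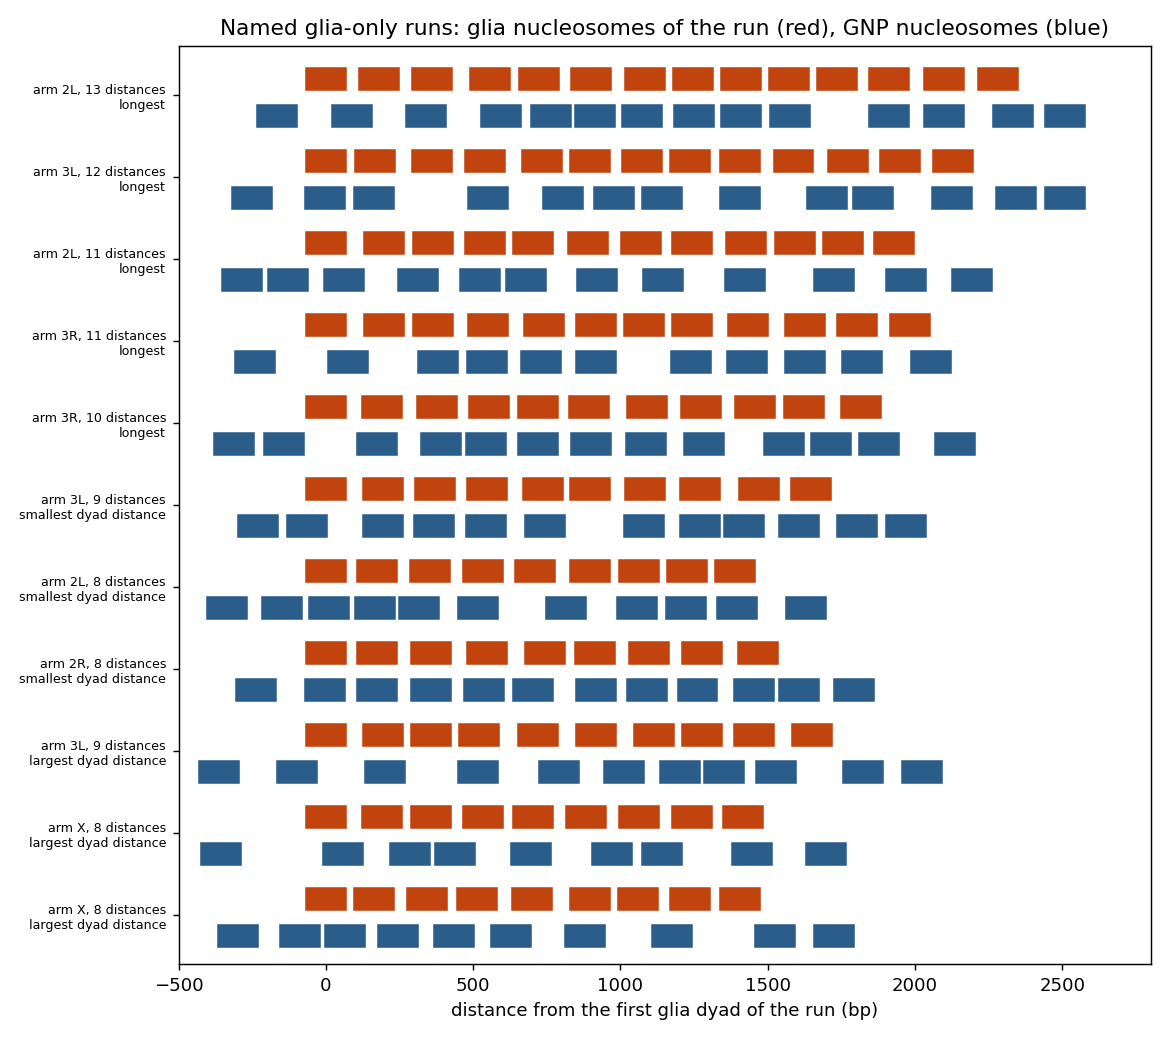
Named glia-only runs, each drawn from its first glia dyad (0 bp), with the glia nucleosomes of the run in red and the GNP nucleosomes in and around it in blue. Blue boxes stand below red ones in the middle of the upper 2L run, and fall between them in the runs with the largest dyad distance.

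Among the 82 runs of 8 or more distances, those with the smallest and the largest median dyad distance were looked up. On 2R at 3438538 to 3440149, 8 of 9 glia nucleosomes had a GNP dyad within 20 bp, with a median distance of 5 bp. The GNP distances were 183, 180, 167, 215, 174, 170 and 193 bp, so a single distance of 215 bp broke the array. On 3L at 18553932 to 18555724 the median dyad distance was 6.5 bp, 6 of 10 nucleosomes were close, and GNP had a wide distance of 334 bp. On 2L at 5323407 to 5324941 it was 7 bp, with 6 of 9 close and GNP distances from 148 to 300 bp. This run was 1 of 4 with a median of 7 bp and had the smallest SD of them. The other 3, on 2R, 3L and X, had 5, 6 and 6 of 9 nucleosomes close. The largest median dyad distances were 81 bp on X at 11900156 to 11901716, 80.5 bp on 3L at 374313 to 376109 and 79 bp on X at 4157199 to 4158748. In these 3 runs 1 of 9, 2 of 10 and 1 of 9 glia nucleosomes were close, and GNP had 6, 7 and 6 nucleosomes inside. The GNP distances of the last of them were 180, 190, 194, 251 and 296 bp, so 3 GNP distances in a row were regular but out of register with the glia array.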

How the data were processed

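MNase-seq of 1 GNP and 1 glia library was used. The series lists 12 samples, and 10 ChIP-seq libraries were not analysed here. The authors aligned single-end reads to dm3 with Bowtie (0.12.7 in the submitters' processing notes), kept uniquely mapped reads and predicted nucleosomes with GeneTrack, whose settings are not given in the sources used here. Each deposited list has the chromosome, start and end of every nucleosome, with end minus start of 146 bp and no neighbours closer than 147 bp, and no occupancy or read count. Depth is therefore unknown. Whether lists count from 0 or 1 could not be settled, so coordinates carry 1 bp of uncertainty.

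Runs were found with Python 3.11.15 and numpy 2.4.6, and checked on simulated maps. A base was shared when the spans from first start to last end, both included, overlapped. Gaps were distances of 296 bp or more. Shares have Wilson intervals, numbers exact Poisson and medians order-statistic intervals, all at 95% (scipy 1.17.1). Named runs were the 5 longest, the longest of each arm, the 3 largest and 3 smallest median dyad distances among runs of at least 8 distances, and the 3 fullest windows. Ties went to the smaller SD of the distances, then by arm and start, and among windows by arm and start. Other minimum lengths, distance windows, rules of absence and limits for close dyads were tried. Runs, comparisons and rules were chosen with earlier results of these data known. The gene table at hand is of another build (Release 6), so runs were not placed on genes, and no sequence is shown.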

Additional observations from a re-analysis of the deposited data

How the results depend on the processing

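In 33 of 74 recalculations the value stayed within its 95% interval (numbers of runs within 1.5-fold), and in 41 it moved. The intervals are narrow, so small changes count as moved. Minimum length and window set the number of runs. A stricter rule leaves fewer GNP runs to overlap with, so the glia-only shares below are no measure of glia specificity. With at least 4 distances there were 4182 glia-only runs (79.6% of glia runs), 44.0% of GNP distances were 160 to 200 bp, the median dyad distance was 39 bp, 40.9% of nucleosomes were close and there were 68.2 GNP per 100 glia nucleosomes. With at least 6 these were 669 runs (93.0%), 48.1%, 31 bp, 44.3% and 73.1, and with at least 8 they were 100 runs (100%), 49.4%, 27 bp, 45.0% and 74.6, since a stricter rule in both maps also lets shorter GNP runs stay inside. A window 5 bp narrower at both ends gave 569 runs (94.0%), a median GNP distance of 189 bp, 49.8%, 28 bp and 44.7% close. A window 5 bp wider at both ends gave 3405 runs (79.4%), 194 bp, 43.8%, 38 bp and 40.9%. With GNP runs found at 150 to 210 bp, 68.1% of glia runs were glia-only, the median GNP distance was 197 bp, 42.3% were 160 to 200 bp, the median dyad distance was 42 bp, 40.1% were close and there were 69.4 GNP per 100 glia nucleosomes. That share of close nucleosomes lies below the 41.2% of all glia nucleosomes, so whether glia-only runs are slightly above or below the whole map depends on the rule. A run kept unless GNP runs covered at least 0.5 of it gave 92.1% glia-only. Counting every GNP distance touching a run moved the median GNP distance from 192 bp to 201 bp and the share to 40.8%. Limits of 10 and 30 bp gave 30.9% and 48.4% close, beside 29.3% and 47.4% of all glia nucleosomes. Leaving out runs touched by a GNP distance over 500 bp, an alternative chosen after seeing the data, kept all 7 values. No paired analysis was possible because each cell type has 1 library. The unknown depth limits every statement on absence from the GNP map.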
